A study of Gallus gallus with 16 samples.

Results

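The ovaries of hens with high egg production (HEP) were compared with the ovaries of hens with low egg production (LEP). The 5 libraries are those of HEP hens 1 and 3 and of LEP hens 4, 5 and 6, out of 16 libraries of 3 tissues in the series. All hens were Chinese Luhua chickens, a local breed, and 300 days old, with free access to feed and water. The labels' protocols state that HEP and LEP hens were the 200 best and the 200 poorest layers of a flock of 856, by eggs counted up to that age. No treatment separated the groups. The ovary of HEP hen 2 was not analysed here. The labels do not say which part of the ovary was taken, whether follicles were included, or where in the laying cycle a hen stood. Genes were compared if their mean over the 5 ovaries was at least 1 FPKM (read fragments per kilobase of a gene's transcript, relative to the size of the library) and if they were above 0 in each ovary. This held for 12181 of 17108 genes.

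The laying hen carries a graded series of follicles in the left ovary, from small follicles in the cortex to large yolk-filled follicles that are ovulated in sequence. Granulosa and theca cells of these follicles make steroid hormones under the control of the pituitary gonadotropins, and the growing oocytes take up yolk precursors that the liver releases into the blood. Bulk RNA of such an organ mixes all of these cells, and fewer cells of a type cannot be told apart from less RNA per cell. Rows of the table carry Ensembl gene identifiers without names. None of the 17108 identifiers matched the reference gene table used here, so ovarian genes such as those of steroid synthesis could not be looked up. The labelled tissue could not be checked against marker genes for the same reason. Genes are described below by their level, by the tissues in which they are expressed, and by identifier for 2 genes in each direction.

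A limit of 1 FPKM separated the genes compared from the rest, with the lowest mean inside it at 1.00002 FPKM and the highest mean outside it at 0.999479 FPKM among genes above 0 in all 5 ovaries. A mean under 1 FPKM left out 4782 genes, of which 2154 were listed at 0 in every ovary. A zero in at least 1 ovary left out another 145 genes. Of these, 5 were listed at 0 in both HEP ovaries and above 0 in all LEP ovaries, and 3 were above 0 in both HEP ovaries and at 0 in all LEP ovaries. The other 137 did not follow the groups in this way.

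The ovary libraries listed 14189 to 14356 genes above 0. Their summed FPKM was 1352249 and 1699981 in HEP 1 and HEP 3, against 3590865, 2536523 and 1529737 in LEP 4, LEP 5 and LEP 6. The 3 genes with the highest mean took 47.3% and 58.1% of this sum in the HEP ovaries, against 75.1%, 67.1% and 52.0% in the LEP ovaries. LEP 4 and LEP 5 were the highest in both measures, and LEP 6 lay within the range of the HEP ovaries. The median FPKM of the genes compared was 16.1 and 17.1 in the HEP ovaries, and 15.6, 15.3 and 18.3 in the LEP ovaries.

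By correlation, the LEP ovaries were less like each other than like the HEP ovaries. On the log2(FPKM + 1) scale, which is used for all differences here, HEP 1 and HEP 3 correlated across genes with r = 0.978. HEP with LEP ovaries correlated with r between 0.960 and 0.985 over 6 pairs, and the 3 pairs of LEP ovaries with r between 0.953 and 0.956. These are correlations across genes, which are not independent replicates. The highest r of all 10 pairs was that of HEP 3 with LEP 6. In the pituitaries of the same hens, by the same rule for genes, HEP 3 and LEP 6 correlated with r = 0.971, and the highest r was 0.991, for HEP 1 with LEP 4.

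The same order appeared in the number of genes that were at least 2-fold apart, a log2 difference of 1. HEP 1 and HEP 3 differed by this much in 262 genes. HEP with LEP pairs differed in 163 genes, for HEP 3 with LEP 6, to 676 genes, for HEP 1 with LEP 5. The LEP pairs differed in 686, 808 and 936 genes. By this count each of the 3 LEP pairs was further apart than any pair of a HEP and a LEP ovary. By the median size of the log2 difference of a gene, LEP 4 with LEP 5, at 0.24, lay within the range of the HEP with LEP pairs, 0.17 to 0.27, while LEP 4 and LEP 5 each lay 0.33 from LEP 6. The median SD of a gene within the group was 0.14 in HEP (n = 2) and 0.26 in LEP (n = 3). The median of SDs from 2 ovaries tends to be lower than that from 3, so these SDs cannot be compared directly. The difference between them was not tested.

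**Figure D1:**
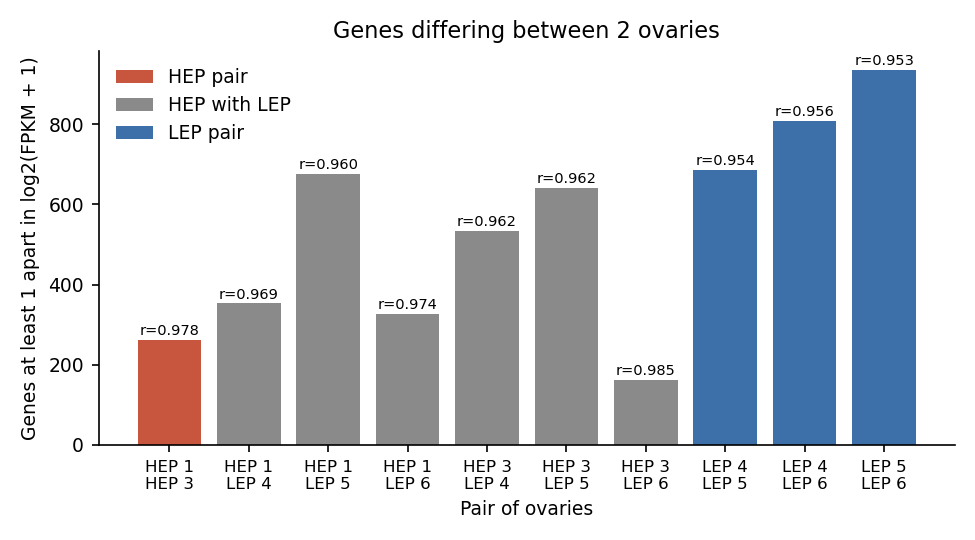
Number of genes at least 1 apart in log2(FPKM + 1) for each of the 10 pairs of ovaries, with Pearson's r across 12181 genes above each bar. Red is the HEP pair, grey are pairs of a HEP and a LEP ovary, and blue are LEP pairs. The LEP pairs, at 686 to 936 genes, stand above all others, and HEP 3 with LEP 6 is lowest at 163 genes.

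Single ovaries stood apart mainly among the LEP hens. HEP 1 was at least 2-fold above all 4 other ovaries in 7 genes and at least 2-fold below them in 12, and HEP 3 in 5 and 9. LEP 4 stood above in 69 genes and below in 16, and LEP 5 above in 76 and below in 96. LEP 6 stood above in 10 genes and below in 17, near the counts of the HEP ovaries. The first principal component held 42.1% of the variance and placed HEP 1 at -4.92 and HEP 3 at -15.8, between LEP 5 at 34.8 and LEP 6 at -27.7, with LEP 4 at 13.6. The second component held 32.8% and placed HEP 1 at -6.36 and HEP 3 at 8.22, between LEP 4 at -34.2 and LEP 5 at 23.4, with LEP 6 at 8.95. On neither axis were the HEP and LEP ovaries separated.

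**Figure D2:**
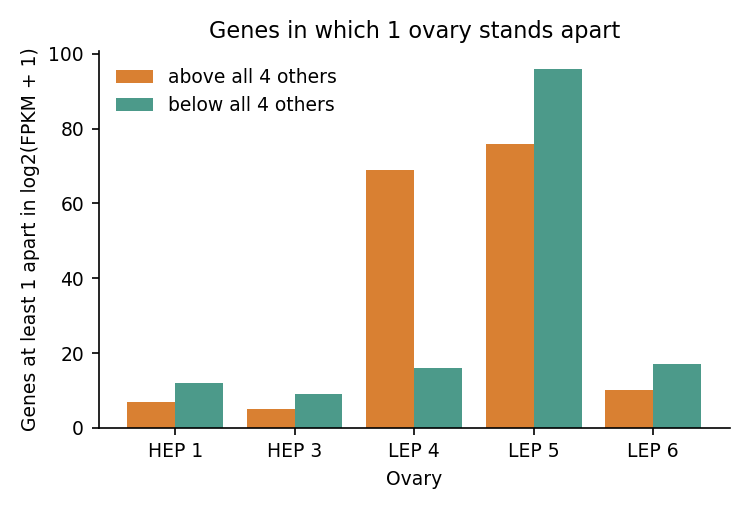
Number of genes in which 1 ovary was at least 1 above (orange) or below (green) all 4 other ovaries in log2(FPKM + 1). LEP 4 stands apart mostly upwards, with 69 genes above against 16 below, and LEP 5 in both directions, with 76 above and 96 below.

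No single gene was found to differ between HEP and LEP ovaries. Of 12181 genes, 0 passed an adjusted p of 0.05 in limma with Benjamini-Hochberg adjustment over all genes, which is 0% called, and the lowest adjusted p was 0.99994. An unadjusted p under 0.05 was reached by 164 genes (1.35%), 73 higher (0.599%) and 91 lower in HEP (0.747%). The share of 1.35% lies below the share of 0.05 that such a threshold lets through on average when no gene differs. Without the requirement that a gene be above 0 in all 5 ovaries, 3 of 12326 genes passed as higher and 1 as lower in HEP. That fit brought in the 145 genes with a zero. Each of them reached the mean of 1 FPKM only through ovaries where it was above 0, so these passes are given as counts only. The median HEP minus LEP difference over all genes was -0.019, with quartiles at -0.15 and 0.14. A gene ranged over 0.59 in the median between its highest and lowest ovary, and 2059 genes ranged over at least 1. The mean difference between the groups reached 1 in size for 53 of these.

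Leaving out LEP 6, the ovary most like HEP 3, changed this picture most. The number of genes with an unadjusted p under 0.05 was then 1263 (10.4%), of which 1012 were higher and 251 lower in HEP. No gene passed the adjusted threshold in that fit either (limma, lowest adjusted p = 0.199). By the median size of the log2 difference, LEP 6 lay 0.33 from LEP 4 and from LEP 5, which lay 0.24 apart. By correlation the LEP pairs were alike, with r between 0.953 and 0.956. Without LEP 6 the median residual SD within groups was 0.19, against 0.25 with all 5 ovaries. In the fits of the same size without LEP 4 or without LEP 5 it was 0.22 and 0.23. The part of the residual SD in the count of 1263 genes was not tested. After median-ratio scaling without LEP 6, an alternative added after the data were seen, 1259 genes had an unadjusted p under 0.05, with 839 higher and 420 lower in HEP. Leaving out HEP 1 gave 71 genes, HEP 3 gave 116, LEP 4 gave 197 and LEP 5 gave 144. The summed FPKM of LEP 6 and the share of its 3 most abundant genes lay in the HEP range, and their part in this result was not tested.

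Among the genes without overlap between the groups, those lower in HEP were the more frequent. Both HEP ovaries were above all LEP ovaries in 569 genes (4.67%) and below all of them in 1158 genes (9.51%). There are 10 ways to part 5 ovaries into groups of 2 and 3. Averaged over these ways, each direction takes about 1 gene in 10, and both shares lie below this. Of the genes without overlap, 32.9% were higher in HEP. This split depended on scaling between libraries, since it was 867 higher and 971 lower after median-ratio scaling (47.2% higher) and 817 higher and 935 lower after quantile normalization (46.6% higher). The median deviation of a library from the gene means was -0.045 and 0.033 in HEP 1 and HEP 3, against -0.040, -0.082 and 0.12 in LEP 4, LEP 5 and LEP 6, so that LEP 6 was the highest.

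A mean difference of at least 1 was seen in 27 genes higher in HEP (0.222%) and in 26 genes lower (0.213%). The 27 genes higher in HEP differed by 1.00 to 1.58, and the 26 lower in HEP by -1.01 to -4.11. Mean levels ran from 1.27 to 147 FPKM among the 27, and from 2.95 to 282754 FPKM among the 26. HEP 1 was the highest ovary in 15 of the 27, and LEP 5 the lowest in 16. HEP 1 was also the lowest ovary in 11 of the 26 genes lower in HEP. Among those 26, LEP 4 was the highest ovary in 11 and LEP 5 in 10. The groups did not overlap in 15 of the 27 (0.123% of all genes) and in 8 of the 26 (0.0657%). The 15 had mean levels between 1.27 and 106 FPKM with a median of 7.03 FPKM, and the 8 between 3.06 and 840 FPKM with a median of 32.6 FPKM.

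ENSGALG00000009511 had the lowest p of the 15 genes higher in HEP. It stood at 3.78 and 4.92 FPKM in HEP 1 and HEP 3, against 1.37, 0.484 and 1.57 FPKM in LEP 4, LEP 5 and LEP 6. Both HEP ovaries were above the highest LEP ovary, and LEP 5 was the lowest. Its level was 4.35 ± 0.81 FPKM (SD, n = 2) in the HEP ovaries and 1.14 ± 0.58 FPKM (SD, n = 3) in the LEP ovaries, a ratio of means of 3.82. The log2 difference was 1.35 with an SE of 0.32, and it did not pass (limma, unadjusted p = 0.00391, adjusted p = 0.99994). In the other tissues its listed values were no more than 0.125 FPKM in the pituitary and 0.0774 FPKM in the hypothalamus. Only 2 of the 5 hypothalami list more than 10000 genes above 0, so zeros in the other 3 say little about expression, here and for the genes below.

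ENSGALG00000001269 was second among the genes higher in HEP, and one of the weakest genes compared. It stood at 3.62 and 1.76 FPKM in HEP 1 and HEP 3, against 0.112, 0.153 and 0.720 FPKM in LEP 4, LEP 5 and LEP 6. Every LEP ovary was under 1 FPKM, so the gene met the limit of 1 FPKM on the mean only through the HEP ovaries. Its difference and p value are therefore given as a description only. The HEP ovaries did not overlap with the LEP ovaries but the gap between HEP 3 and LEP 6, the nearest ovaries of the groups, was smaller in FPKM than the gap between HEP 1 and HEP 3. Its level was 2.69 ± 1.32 FPKM (SD, n = 2) in the HEP ovaries and 0.328 ± 0.340 FPKM (SD, n = 3) in the LEP ovaries. The log2 difference was 1.46 with an SE of 0.35 (limma, unadjusted p = 0.0045, adjusted p = 0.99994). Its highest value was 0.0255 FPKM in the pituitary and 0.0955 FPKM in the hypothalamus.

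ENSGALG00000028502 had the lowest p of all genes compared and was lower in HEP. It stood at 3.46 and 1.02 FPKM in HEP 1 and HEP 3, against 15.3, 9.64 and 8.27 FPKM in LEP 4, LEP 5 and LEP 6. Every LEP ovary was more than 2-fold above the higher HEP ovary. Its level was 2.24 ± 1.72 FPKM (SD, n = 2) in the HEP ovaries and 11.1 ± 3.7 FPKM (SD, n = 3) in the LEP ovaries, so that the LEP mean was 4.95 times the HEP mean. The log2 difference was -1.97 with an SE of 0.40, and it did not pass (limma, unadjusted p = 0.0017, adjusted p = 0.99994). It was listed at 0 in every pituitary and in all but 1 hypothalamus, that of LEP 4, at 1.68 FPKM.

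ENSGALG00000023930 showed the same order of groups with other hens at the extremes. It stood at 1.01 and 3.94 FPKM in HEP 1 and HEP 3, against 9.58, 10.7 and 17.2 FPKM in LEP 4, LEP 5 and LEP 6. LEP 6 was the highest ovary here and LEP 4 the lowest of its group. Its level was 2.47 ± 2.07 FPKM (SD, n = 2) in the HEP ovaries and 12.5 ± 4.1 FPKM (SD, n = 3) in the LEP ovaries, so that the LEP mean was 5.05 times the HEP mean. The log2 difference was -2.06 with an SE of 0.42 (limma, unadjusted p = 0.00182, adjusted p = 0.99994). It was listed at 0 in every hypothalamus and at no more than 0.227 FPKM in the pituitary.

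The lack of overlap in these 4 genes was required by the rule that chose them and is no result. For the same reason no permutation test over the 5 ovaries is given for them. All 4 were lower than 1 FPKM on average in the pituitary, so their difference could not be set against that of another tissue. In a fit of all 16 libraries the adjusted p was 0.0639 for ENSGALG00000009511 and for ENSGALG00000001269, 0.0809 for ENSGALG00000023930 and 0.790 for ENSGALG00000028502 (limma). The log2 differences were the same there, with SEs, in this order, of 0.20, 0.21, 0.32 and 0.41. That fit takes the spread within groups over all 3 tissues. These genes were near 0 FPKM in most libraries of the other tissues, so its p values do not measure the spread between ovaries alone.

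**Figure D3:**
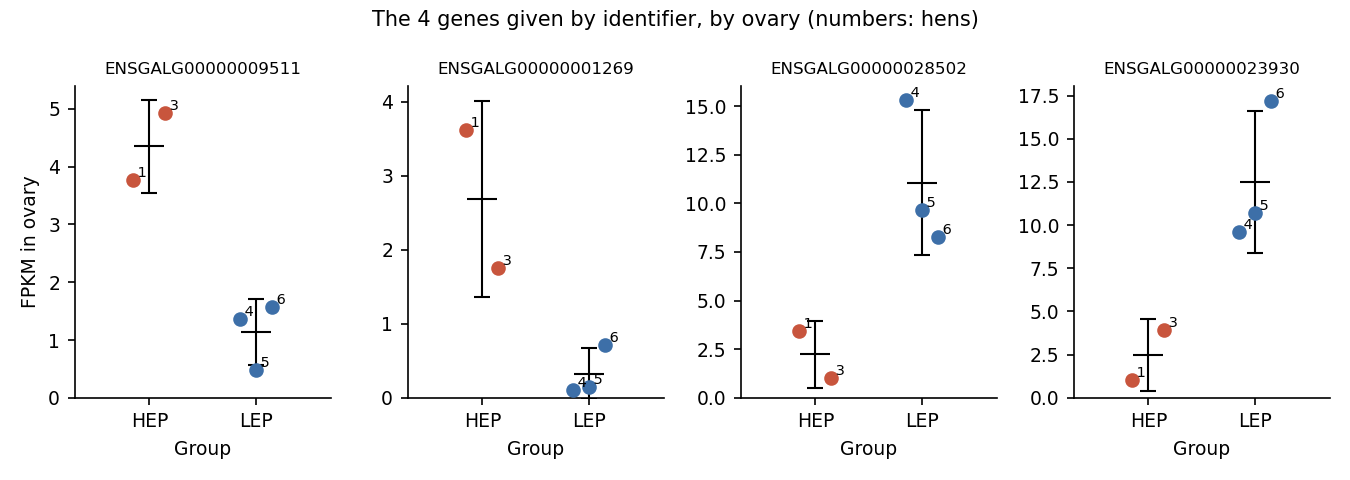
FPKM of 4 genes in each ovary, HEP in red and LEP in blue, with hen numbers beside the points. Horizontal marks are group means and bars are SD (n = 2 for HEP and 3 for LEP). The panels for ENSGALG00000009511 and ENSGALG00000001269 have both HEP ovaries on top, and those for ENSGALG00000028502 and ENSGALG00000023930 have all LEP ovaries on top, with LEP 4 highest in the one and LEP 6 in the other.

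Abundant genes were on balance lower in HEP ovaries in the values as deposited and after median-ratio scaling, but not after quantile normalization, where their median difference was 0.011. Of the 860 genes with a mean of at least 100 FPKM, 172 had a positive and 688 a negative difference (80.0%), against 5606 positive and 6575 negative over all genes. Their median difference was -0.13, against -0.019 over all genes. Both HEP ovaries were above all LEP ovaries in 16 of the 860 (1.86%, against 4.67% of all genes) and below all of them in 184 (21.4%, against 9.51%). No set test was run on these genes, and none of them passed alone. Their level was the mean over the same 5 ovaries, of which 3 are LEP. A gene high in LEP therefore reaches the limit more easily than one as high in HEP.

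In the values as deposited, the sign of the median difference changed with the level of expression, again taken as the mean over the same 5 ovaries. The median was 0.017, with 1194 positive and 1075 negative differences, for the 2269 genes with means from 1 to 5 FPKM and 0.024, with 2483 positive and 2099 negative, for the 4582 genes from 5 to 20 FPKM. It was -0.044 for the 4470 genes from 20 to 100 FPKM, -0.13 for the 768 genes from 100 to 1000 FPKM, and -0.22 for the 92 genes above. In the last class 12 genes had a positive and 80 a negative difference. Both HEP ovaries were above all LEP ovaries in 7.23% and below all of them in 5.11% of the genes of the lowest class, and in 2.17% and 26.1% of those of the highest. The medians and shares of these classes were not taken again after scaling between libraries. For the genes of at least 100 FPKM together, the median was 0.011 after quantile normalization.

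**Figure D4:**
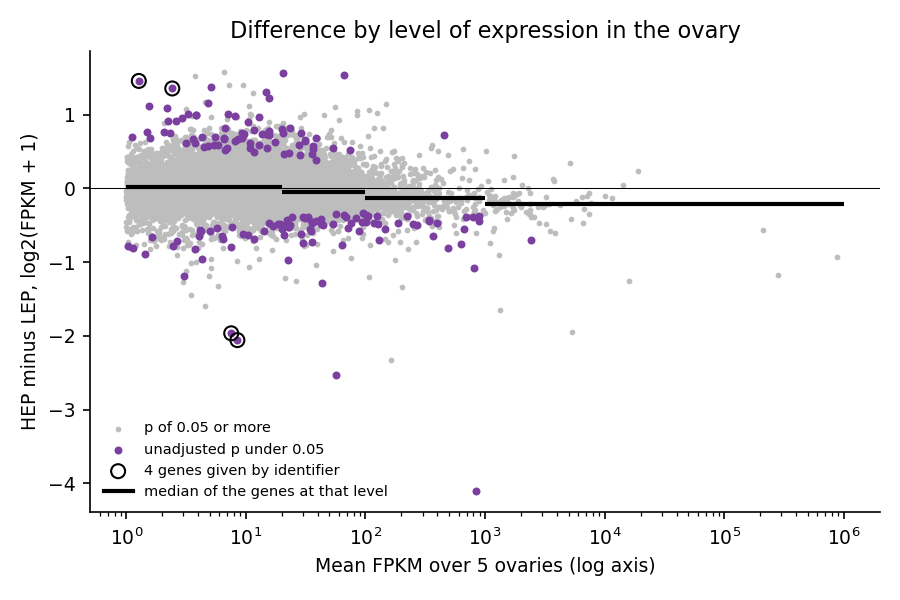
HEP minus LEP difference in log2(FPKM + 1) against the mean FPKM over 5 ovaries (log axis) for 12181 genes. Purple points have an unadjusted p under 0.05, circles mark the 4 genes given by identifier, and black lines are medians of the genes of a level class. The medians, on FPKM as deposited, run between 0.024 at 5 to 20 FPKM and -0.22 above 1000 FPKM. For genes of at least 100 FPKM the median was 0.011 after quantile normalization.

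By library, the median deviation of the 860 abundant genes from their means was -0.11 in HEP 1 and -0.056 in HEP 3. It was 0.10 in LEP 4, 0.0018 in LEP 5 and 0.034 in LEP 6. The groups did not overlap in the FPKM values as deposited. After median-ratio scaling the values were -0.061 and -0.094 in HEP 1 and HEP 3, against 0.14, 0.094 and -0.10 in LEP 4, LEP 5 and LEP 6. LEP 6 then lay below both HEP ovaries, so that the groups overlapped, while the median difference stayed at -0.13. Quantile normalization, which gives every library the same distribution of levels, left 397 of the 860 genes negative. LEP 4 and LEP 5, the highest after median-ratio scaling, were also the libraries with the highest summed FPKM, and the part of this in the result was not tested.

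**Figure D5:**
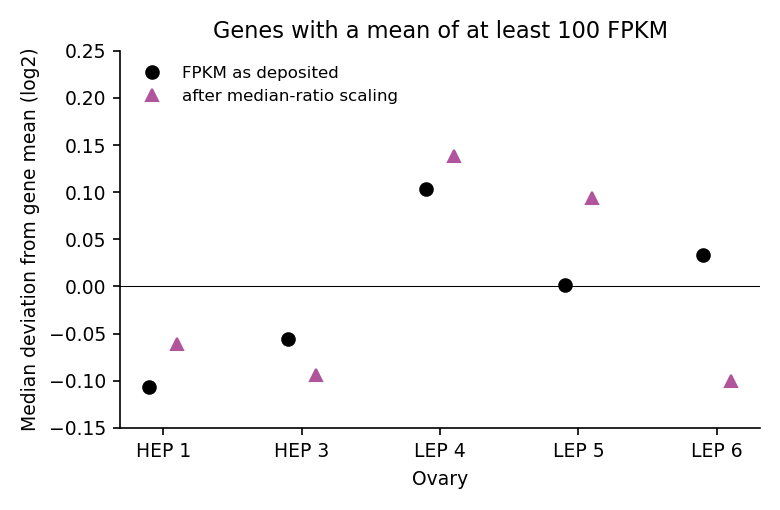
Median deviation, in log2(FPKM + 1), of 860 genes with a mean of at least 100 FPKM from their means over the 5 ovaries, as deposited (black circles) and after median-ratio scaling (purple triangles). HEP 1 and HEP 3 lie below every LEP ovary as deposited, whereas LEP 6 moves to -0.10, below both, after scaling.

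Genes enriched in the ovary had a larger median spread between hens of a group than all genes, a difference that was not tested. Of the genes compared, 374 averaged 5 FPKM or more in the ovary and stood 8-fold above both the pituitary and the hypothalamus. The ovary mean was taken over the same 5 ovaries. A gene very high in a single ovary could thus enter the class through it, which favours a large spread. The median residual SD within groups was 0.45 for the 374 genes, against 0.25 over all genes. It was 0.36 for the 321 genes that were 8-fold higher in the pituitary or the hypothalamus than in the ovary. Within the groups, the median SD of the ovary-enriched genes was 0.36 in HEP (n = 2) and 0.47 in LEP (n = 3). The median of SDs from 2 ovaries tends to be lower than that from 3, so these SDs cannot be compared directly.

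The ovary-enriched genes were balanced between the groups, with 182 positive and 192 negative differences and a median of -0.0034. A difference of at least 1 in size was seen in 11 of the 374 (2.94%, against 0.435% of all genes), 6 higher and 5 lower in HEP. An unadjusted p under 0.05 was reached by 6 of them (1.60%, against 1.35%). Both HEP ovaries were above all LEP ovaries in 6 (1.60%, against 4.67%) and below in 7 (1.87%, against 9.51%). Large differences were thus more frequent among these genes than over all genes, while separated groups were less frequent, and neither was tested. The class was set on the levels of these same ovaries, which bears on both shares. Of the 53 genes with a difference of at least 1, 8 of the 27 higher in HEP and 8 of the 26 lower stayed under 1 FPKM in all 6 pituitaries and in the 2 hypothalami used here, as did 601 of all genes compared (4.93%).

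The HEP minus LEP differences of the ovary were tested against those in the pituitaries of the same 5 hens. The main fit took the 10 libraries as independent and left out the pairing of tissues by hen. Among 11006 genes that averaged 1 FPKM or more in both tissues, 0 (0%) passed the threshold for this contrast of ovary and pituitary (limma interaction term, lowest adjusted p = 0.999865). An unadjusted p under 0.05 was reached by 110 (0.999%). With hen as block the numbers were 0 and 144. Leaving out hen 5 or hen 6 gave 1 gene each past the threshold. No gene had passed in the ovary alone, so these counts do not show a difference shared by both tissues.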

How the data were processed

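Total RNA was prepared with a column kit (RNeasy Mini) and sequenced on an Illumina HiSeq instrument, per the labels' protocols and the design text. The authors deposited FPKM values, already divided by transcript length and library size, with 1 column per library. The unit is taken from the table's name. The highest gene mean over the ovaries, 872494 FPKM, is unusual for this unit, and the library size used as denominator is not given, which bears on summed FPKM and on the abundant genes. Which aligner, counting tool, genome build and annotation were used is not given in the sources used here. Read depth is unknown: ratios of values under 0.3 FPKM between ovaries fell within 0.05 (log2) of the commonest ratio for 5.01% to 16.1% of genes, so whole reads could not be recovered and no counting intervals are given. FPKM is a share of a library, so a few very abundant genes can move all other values.

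HEP and LEP ovaries were compared with limma 3.58.1 in R 4.3.3 (empirical Bayes with trend) on log2(FPKM + 1), a scale that understates changes of weakly expressed genes. P values are two-sided, Benjamini-Hochberg adjusted over all genes tested, with a threshold of 0.05. In the comparison of the 5 ovaries they measure the spread between 5 hens. The interaction with tissue used 10 libraries, taken as independent in the main fit and with hen as block in an alternative. The labels' hen codes pair the tissues of a hen. Deviations from group means correlated between ovary and pituitary with r of 0.0753 in hens 1 and 3 (equal by construction with 2 hens), -0.149 in hen 4, 0.0168 in hen 5 and -0.148 in hen 6. The hypothalami used for enrichment were the 2 with more than 10000 genes above 0.

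The comparison and the lists were chosen with earlier results of these data known. Genes given by identifier were to be the largest differences past the threshold. With none, they were those of lowest p with a difference of at least 1 and no overlap, 2 in each direction. Gene and marker lists by symbol could not be used, since the reference gene table (GRCg7b, 25635 genes) holds 0 Ensembl identifiers and 0 of 17108 matched.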

Additional observations from a re-analysis of the deposited data

How the results depend on the processing

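In the ovary, the number of genes past the threshold (limma) was 0 in each direction under every alternative that was run except the filter on zeros. Without that filter, which brought in 145 genes listed at 0 in at least 1 ovary, 3 of 12326 genes were higher and 1 lower in HEP. The number with an unadjusted p under 0.05, 164 as reported, was 65 in the fit of all 16 libraries and ran between 71 and 1263 when single ovaries were left out, where a lone HEP ovary is assumed to vary like the LEP ovaries. It was 1259 with median-ratio scaling and without LEP 6. For the 2 genes higher and 2 lower given by identifier, log2 differences lay between 1.08 and 2.90 and between -2.71 and -1.39 in the alternatives that tested them. Their direction is no result, since genes chosen for no overlap cannot change sign with another pseudocount, another filter or 1 ovary less. The lowest adjusted p was 0.0639 (limma), in the fit of all 16 libraries. The number of genes with a difference of at least 1 was 67 higher and 71 lower with a pseudocount of 0.1, and 59 and 94 without the filter on zeros. Leaving out single ovaries gave 24 to 139 higher and 39 to 71 lower. The lower median of abundant genes moved to 0.011 after quantile normalization and to -0.19 with median-ratio scaling and without LEP 6. It lay between -0.16 and -0.11 when single ovaries were left out.

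No paired analysis was possible because HEP and LEP ovaries come from different hens with different numbers. For the difference between ovary and pituitary, the replicate block (hen) left the number of genes past the threshold at 0. Leaving out single hens gave 0 to 1 genes past the threshold and 49 to 498 genes with an unadjusted p under 0.05. Counts of members of the symbol lists were not run. Read depth is unknown, so weakly expressed genes could not be weighted by their precision.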
